A study of Homo sapiens with 6 samples.

Results

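DKK1, TCIM and the genes read with them in the Wnt pathway, namely PRKG1-AS1, CTNNB1, CCND1 and MYC, were examined in long-read cDNA libraries of Calu-6 cells. These 6 genes, of 10072 in the count table, were found by their symbols and held 9 of its 21472 transcript models. DKK1 and TCIM had been chosen by their measured change between the 2 groups compared here, so the values of the 6 genes across the groups are given as a description, without a test. Calu-6 is an established line from a human non-small cell lung carcinoma, and its genotype is given as wild type. The cells received 10 nM of a non-silencing siRNA (siControl, 3 libraries) or of an siRNA directed at the joint of exons 1 and 5 in the Delta 2-4 splice variant of TERT (siDelta2-4, 3 libraries), each for 48 h with RNAiMAX. The count columns also carry the word the study uses for cells with an empty vector. The study's methods describe these siRNA treatments in Calu-6 lines that stably carried an empty Flag-V5 vector or Flag-V5-Delta 2-4. By those methods and the column names the cells were the empty-vector line, which the genotype label does not state.

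Wnt ligands bind Frizzled receptors together with the co-receptors LRP5 and LRP6, and this stops a cytoplasmic destruction complex from marking beta-catenin (CTNNB1) for breakdown. Beta-catenin then enters the nucleus, joins TCF and LEF factors and activates genes such as CCND1, which encodes cyclin D1, and MYC, a growth-promoting transcription factor. DKK1 is a secreted antagonist that binds LRP5 and LRP6 and is itself a target of beta-catenin, while TCIM (also called TC1) binds Chibby (CBY1), an inhibitor of beta-catenin, and relieves that inhibition.

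The libraries held 1037468 to 1106413 counts in siControl and 1070009 to 1309241 in siDelta2-4, with 7016 to 7156 genes counted in siControl and 7902 to 8207 in siDelta2-4. The libraries are called largest, mid-sized and smallest by their totals, because the replicate numbers of the columns could not be tied to single samples. TERT had 0 rows, so its level was not analysed here. All 21472 models had a count in siDelta2-4, and all 6398 unannotated models had at least 5 counts in each siDelta2-4 library. A gene with no row may therefore still have had counts in siControl, or on unannotated models below that minimum. By contrast, 1887 genes had no count in siControl. The numbers of genes counted thus cannot be compared between the groups, and siControl counts on models without a row may be missing from a gene's sum. The keratins KRT8 and KRT18 held 824 and 1124 counts and KRT7 and EPCAM 41 and 13, but KRT19 and CLDN7 held 1 and 2, and the other 2 of the 8 epithelial markers had no row. Of 7 mesenchymal markers, VIM held 987 counts and FN1 2, and of 6 lung alveolar markers 0 had a row. Only 30.7% of the VIM counts and 9.76% of the KRT7 counts were on annotated models, beside 89.9% for KRT8 and 69.8% for KRT18. On the other strand VIM-AS1 held 994 counts and KRT7-AS 45, and KRT8 and KRT18 lay opposite each other. CD68, with 12 counts, was the only one of the 6 blood and endothelial markers with a row. The study called the replicates of this experiment biological, but the labels do not say that the libraries came from separate cultures, so p-values measure the spread between these libraries, which may be technical. These are bulk libraries, in which fewer cells of a kind and less RNA per cell cannot be told apart.

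DKK1 lies at chr10:52314281-52318042 on the plus strand of GRCh38, and PRKG1-AS1, a long non-coding RNA gene, at chr10:52230398-52314507 on the minus strand. Their starts face away from each other: in RefSeq they are 152 bases apart, at positions 52314281 and 52314128. The 250 bases before the start of DKK1 are shown because the RefSeq start of PRKG1-AS1 lies within them, that of DKK1 directly follows them, and both genes had more counts in siDelta2-4. In Gencode 44, on which the counts were made, the span of PRKG1-AS1 begins at 52314507, inside DKK1. Only its transcript PRKG1-AS1-204 reaches there, and PRKG1-AS1-201 begins at the RefSeq start. The sequence is from RefSeq (GRCh38.p14, chr10:52314031-52314280, plus strand), and capitals mark 7-letter sites of the kind bound by TCF and LEF factors.
DKK1 upstream region: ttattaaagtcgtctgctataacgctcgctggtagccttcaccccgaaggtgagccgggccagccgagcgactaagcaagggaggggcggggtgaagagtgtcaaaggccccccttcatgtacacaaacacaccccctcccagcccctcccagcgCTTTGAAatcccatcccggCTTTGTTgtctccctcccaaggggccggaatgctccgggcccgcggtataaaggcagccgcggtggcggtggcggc
The letters searched, on both strands, were CTTTG followed by AA, AT, TA or TT. The window held 2 sites, which did not overlap and ended 89 and 70 bases before the start. Of 35116 RefSeq windows of the same length, 12% held at least 1 such site and 1.21% held at least 2. A match of these letters is a description of the window and not a measured binding site.

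DKK1 was counted 26, 25 and 42 times in the largest, mid-sized and smallest siControl library, and 58, 67 and 67 times in the siDelta2-4 libraries in the same order. In CPM, the counts scaled to library totals after TMM normalisation, these were 25.3, 24.0 and 40.2 in siControl and 44.5, 54.4 and 62.7 in siDelta2-4. All 3 siDelta2-4 libraries lay above all 3 siControl libraries, although the smallest siControl library came within a few CPM of the lowest siDelta2-4 value. The mean level was 29.9 ± 9.01 CPM in siControl and 53.9 ± 9.13 CPM in siDelta2-4 (SD, n = 3 each). The fitted log2 fold change of siDelta2-4 against siControl was 0.84 (SE 0.21), a fold of 1.79.

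Nearly all DKK1 counts were on its full-length annotated transcript. DKK1-201, with 4 exons and 1805 bases, held 278 of the 285 counts (97.5%), and DKK1-203, with 3 exons and 544 bases, held 7 (2.46%). DKK1-203 had at most 2 counts in any library, so no member gene had 2 models with enough counts for a test of transcript usage.

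TCIM, a single-exon gene at chr8:40153482-40155310 on the plus strand, had the largest ratio among the members. Its counts were 3, 11 and 11 for siControl and 36, 38 and 27 for siDelta2-4, all on TCIM-201, a transcript of 1829 bases. The levels were 2.92, 10.5 and 10.5 CPM in siControl and 27.6, 30.9 and 25.3 CPM in siDelta2-4. The lowest siDelta2-4 library was above the highest siControl library by more than the range within either group. The means were 8.0 ± 4.40 and 27.9 ± 2.81 CPM (SD, n = 3 each), and the log2 fold change was 1.79 (SE 0.33), a fold of 3.45. The largest siControl library lay at the floor of 3 counts used here, which equals 2.92 CPM in it, and without this library the log2 fold change was 1.38. Floors and intervals cover counting error only, since PCR reads are not independent molecules.

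**Figure D1:**
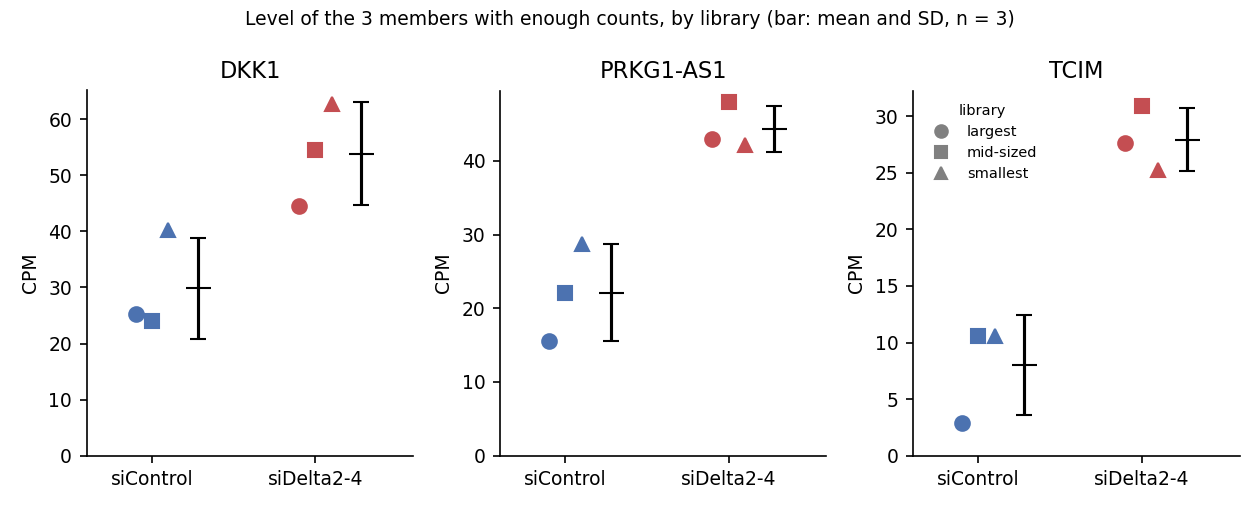
TMM-scaled CPM (y axis, from 0) of DKK1, PRKG1-AS1 and TCIM in each library, with markers by library size and bars for the mean and SD of 3 libraries per group. For each of the 3 genes the siDelta2-4 points lie above the siControl points, and the TCIM point at 2.92 CPM is the largest siControl library.

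The counts of PRKG1-AS1 were 16, 23 and 30 for siControl and 56, 59 and 45 for siDelta2-4, again with no overlap between the groups. The mean level was 22.1 ± 6.57 CPM in siControl and 44.3 ± 3.14 CPM in siDelta2-4 (SD, n = 3 each), with a log2 fold change of 1.00 (SE 0.22). Of the 6 members, 3 had enough counts to enter the fit, and all 3 had CPM that did not overlap between groups and were higher in siDelta2-4. Over all 3888 genes in the fit that share was 14.1%, and nothing is read from the members' count, since 2 of them were selected on this contrast.

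All 229 counts of PRKG1-AS1 were on a single unannotated model, TALONT000524962, which the annotation program TALON classed as a new combination of known splice sites. This model had 4 exons and 1805 bases, which are the exon number and the length of DKK1-201. Gencode 44 lists 6 transcripts of PRKG1-AS1, of 971 to 2977 bases, of which 2 had 4 exons, both wholly outside DKK1, and 0 had this length. The gene spans share 227 bases (chr10:52314281-52314507), all within the first exon of DKK1-201, and these make up 12.6% of that transcript. The other 3 exons of DKK1-201, of 163, 141 and 1104 bases, overlap no annotated PRKG1-AS1 exon. The deposited table gives no coordinates for the model, so its exons could not be placed, and whether its reads came from DKK1 or from PRKG1-AS1 was not tested.

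**Figure D2:**
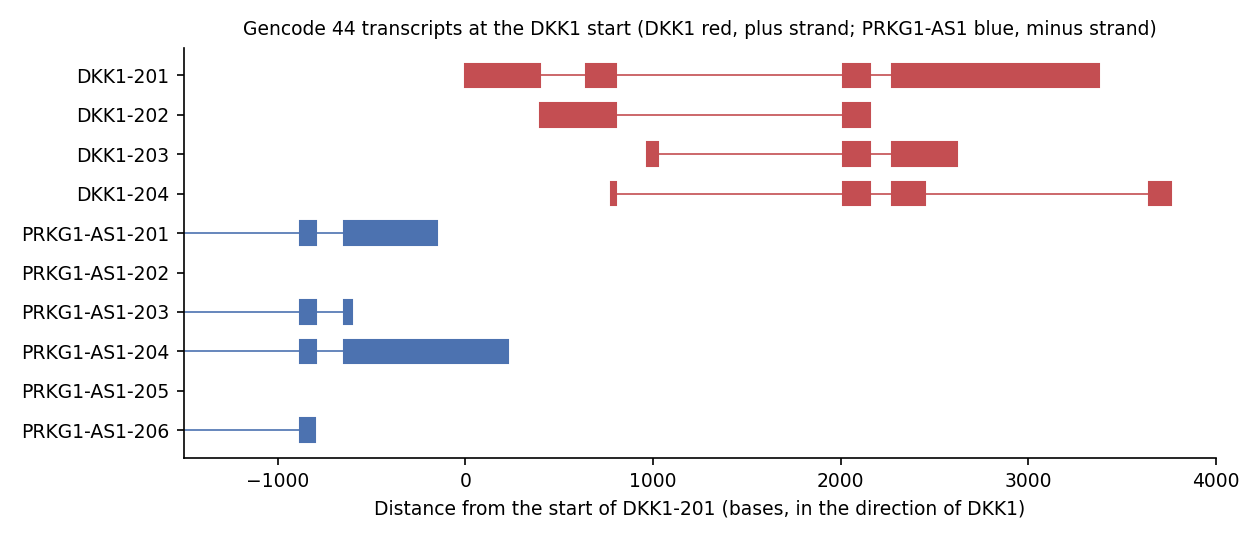
Annotated transcripts around the start of DKK1, as distance in bases from the start of DKK1-201 (x axis, linear), with boxes for exons and lines for introns. Of the PRKG1-AS1 transcripts only PRKG1-AS1-204 enters DKK1, by 227 bases into the first exon of DKK1-201 and no other. PRKG1-AS1-202 and PRKG1-AS1-205 lie wholly outside the window.

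The ends of the 3 introns of DKK1-201 are shown as the splice sites of the transcript whose exon number and length the PRKG1-AS1 model shares. Each line has 20 bases of GRCh38 on the plus strand, with the first or last pair of intron bases in capitals.
Intron 1 donor (chr10:52314668-52314687): caactaccagGTgagagggg
Intron 1 acceptor (chr10:52314913-52314932): cttcccacAGccgtacccgt
Intron 2 donor (chr10:52315076-52315095): tgcaaaaatgGTgagtcctg
Intron 2 acceptor (chr10:52316285-52316304): gcttccttAGgaatatgtgt
Intron 3 donor (chr10:52316426-52316445): cacaccaaagGTaaggatgt
Intron 3 acceptor (chr10:52316544-52316563): tccttcgtAGgacaagaagg
All 3 introns, of 245, 1209 and 118 bases, begin with GT and end with AG on the strand of DKK1, the pairs used by most human introns. Read on the strand of PRKG1-AS1, the same positions give CT and AC. Whether the PRKG1-AS1 model used any of these positions could not be determined.

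Models with equal exon number and length across strands were counted in the table, where only exact equality of length was taken. Among multi-exon models of annotated genes that lay opposite another counted gene, the class of the PRKG1-AS1 model held 657. Of these, 31 (4.72%), the PRKG1-AS1 model included, had the exon number and length of an annotated transcript of the opposite gene. For models that matched their own annotation this was 3 of 3932 (0.0763%), and for models that were incomplete copies of an annotated transcript it was 13 of 621 (2.09%). For models with an unannotated splice site it was 1 of 136 (0.735%). The structure of models that match their own annotation is fixed by it, so their share is no baseline for the other classes. These shares are a description, and nothing is read from them about the origin of the PRKG1-AS1 reads.

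Counts at the locus were divided between the strands in a like way in all 6 libraries. PRKG1-AS1 took 38.1% (95% Wilson interval 25.0 to 53.2), 47.9% (34.5 to 61.7) and 41.7% (31.0 to 53.2) of the counts of both genes in the largest, mid-sized and smallest siControl library. In siDelta2-4 it took 49.1% (40.1 to 58.2), 46.8% (38.3 to 55.5) and 40.2% (31.6 to 49.4). The group means were 42.6% ± 4.97 and 45.4% ± 4.65 (SD, n = 3 each), a difference smaller than the SD of either group. With the counts of both genes summed as 1 locus, the log2 fold change was 0.91 (SE 0.17).

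**Figure D3:**
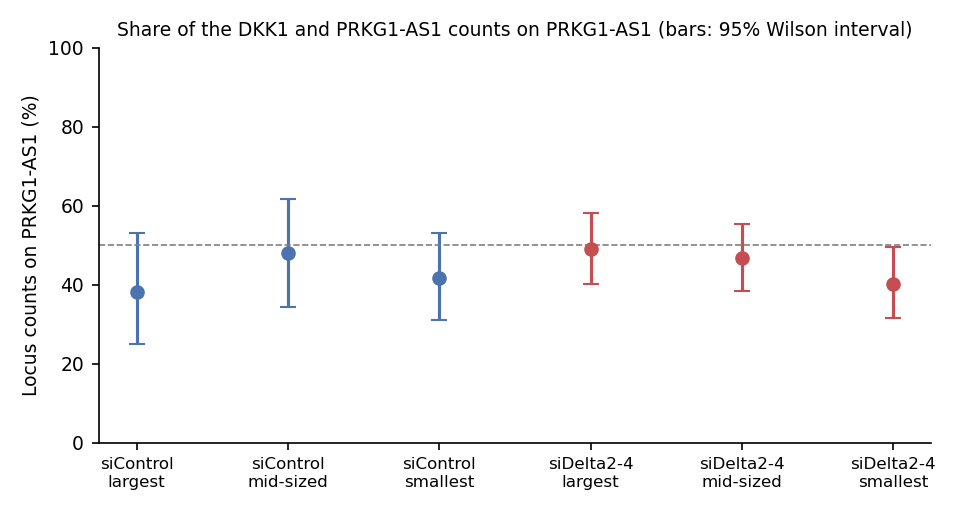
Share of the summed DKK1 and PRKG1-AS1 counts that was on PRKG1-AS1 (y axis, percent) in each library, with 95% Wilson intervals and a dashed line at equal counts. The shares run from 38.1% to 49.1% and the intervals of the 2 groups overlap, while that of the smallest siDelta2-4 library, up to 49.4%, does not reach equal counts.

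CTNNB1, CCND1 and MYC were at or close to 0 counts, below what this depth can compare. CTNNB1, which encodes beta-catenin (chr3:41194741-41260096, plus strand), gave 0, 0 and 2 counts for siControl and 1, 0 and 1 for siDelta2-4, all on CTNNB1-202, a transcript of 3268 bases with 16 exons. CCND1 (chr11:69641156-69654474, plus strand) gave 2, 1 and 0 counts for siControl and 0, 2 and 0 for siDelta2-4. MYC (chr8:127735434-127742951, plus strand) gave 0, 1 and 1 counts for siControl and 2, 0 and 0 for siDelta2-4. None of the 3 genes exceeded 2 counts in any library, and a count of 0 allows up to 3 counts, or 2.30 to 2.92 CPM in these libraries. No fold is given for them, and a difference between the groups was not detectable at this depth.

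The wider pathway was taken from 8 lists of Wnt genes, together 211 genes besides the members. Of these, 54 had a row, 18 entered the fit and 0 were called by edgeR's quasi-likelihood test at an adjusted p under 0.1, against 13% of all 3888 genes (504 genes). Of the 18, 3 had an unadjusted p under 0.05, beside 900 of all 3888. DESeq2 called 0 of the 10 to which it gave an adjusted p, and 279 genes over the table. How many genes of the table had a DESeq2 adjusted p was not counted, so nothing is read from this 0. The median log2 fold change of the 18 genes was -0.05, beside 0.03 over all genes in the fit, and 8 of the 18 were above 0, beside 2094 of the 3888. Without the smallest siControl library, 3 genes were called, all lower in siDelta2-4: SKP1, TCF7 and PFN1. In that fit 1041 of 4098 genes over the table were called, 487 of them lower. SKP1 and TCF7 lie opposite each other, and whether their reads came from one gene or from both was not tested. With DESeq2 size factors 1 gene was called (PFN1, lower), beside 514 of 3888 over the table. With library totals alone 2 were called (CACYBP and PLAUR, higher), beside 513 of 3888. The number of genes called over the whole table moved from 504 to between 194 and 1041 when each library was left out, and every one of the 6 libraries moved it by over 1.5 times.

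Few genes for ligands, other antagonists and receptors had a row. Of 25 genes for Wnt ligands and their secretion, only WLS, the carrier that brings Wnt proteins to the cell surface, had a row. WLS gave 2, 2 and 1 counts for siControl and 7, 6 and 3 for siDelta2-4, too few to enter the fit. Of 20 secreted antagonists other than DKK1, 1 had a row, TRABD2A. Of 23 receptors and co-receptors, FZD2, FZD7 and FZD8 had rows, with 3, 4 and 1 counts over the 6 libraries. DKK2, DKK3, DKK4, KREMEN1, LRP5 and LRP6, the paralogs of DKK1 and the receptors through which it acts, had 0 rows.

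Among 42 genes of the destruction complex and cytoplasmic relay, 17 had a row and 6 were tested. GSK3B, a kinase that phosphorylates beta-catenin, had 3 counts in all. CACYBP, which links the SIAH1 ubiquitin ligase to SKP1, had 146 ± 11.1 CPM in siControl and 180 ± 11.2 CPM in siDelta2-4 (SD, n = 3 each). Its log2 fold change was 0.30 ± 0.11 (SE), at an adjusted p of 0.1005 by edgeR, just short of the threshold, and MRPS14 on the other strand had a log2 fold change of 0.00.

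Of 30 nuclear partners of beta-catenin, 4 of the 12 with a row were tested, and of 35 target genes, 5 of 12. CBY1, the partner of TCIM and an inhibitor of beta-catenin, was not tested, with 3, 2 and 3 counts for siControl and 8, 4 and 10 for siDelta2-4. The histone deacetylase HDAC1 had 12.2 ± 4.79 CPM in siControl and 18.5 ± 2.60 CPM in siDelta2-4 (SD, n = 3 each), with an edgeR adjusted p of 0.255. PLAUR, the urokinase receptor and a target of beta-catenin, had 40.1 ± 4.27 and 55.6 ± 4.37 CPM, a log2 fold change of 0.47 ± 0.18 (SE), at an adjusted p of 0.106 by edgeR. In the non-canonical branch, which acts on the cytoskeleton, 3 of 30 genes were tested, and all 3 had negative log2 fold changes that did not pass the threshold. PFN1, the actin-binding protein profilin, had the smallest p of these, with a log2 fold change of -0.35 ± 0.14 (SE), at an adjusted p of 0.125 by edgeR. Of 16 cadherin junction partners 3 had a row and 0 were tested.

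TRABD2A and TCF7, among the Wnt genes with the most counts, were counted almost wholly on unannotated models opposite another gene, whereas S100A4, a target with 4747 counts, was 99.1% on annotated models. TRABD2A, a metalloprotease that inactivates Wnt proteins, held 28229 counts, of which 0.00354% were on annotated models. TMSB10, which encodes an actin-sequestering thymosin and lies on the other strand, held 28790 counts, of which 96.1% were on annotated models. The leading model of TRABD2A had 3 exons, as did TMSB10-201, but 817 bases against 461. TCF7, one of the TCF factors, held 4379 counts, 0% of them on annotated models, opposite 4827 counts of SKP1, a subunit of ubiquitin ligases. The leading models of TCF7 and SKP1 both had 6 exons, but 1930 and 9386 bases. The log2 fold changes were -0.02 for TRABD2A and 0.05 for TMSB10 (edgeR adjusted p = 0.891 and 0.778), and -0.15 for TCF7 and -0.12 for SKP1 (0.350 and 0.421).

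DKK1 and PRKG1-AS1 were 1 of 9 pairs on opposite strands among the members, the Wnt genes and the partners of cyclin D and MYC, counting tested genes whose opposite gene held at least 10% of their own count. In TMSB10 and TRABD2A the second gene took 48.0% to 50.7% of the counts per library, and in SKP1 and TCF7 44.5% to 49.0%. In CDK4 and TSPAN31 it took 50.5% to 56.1%, and the leading model of TSPAN31, with 8 exons and 1850 bases, had the exon number of CDK4-201, which has 1865 bases. Whether the reads of such a pair came from one gene or from both was not tested. Leaving out the 5 Wnt genes counted on both strands left 13 tested and 0 called.

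**Figure D4:**
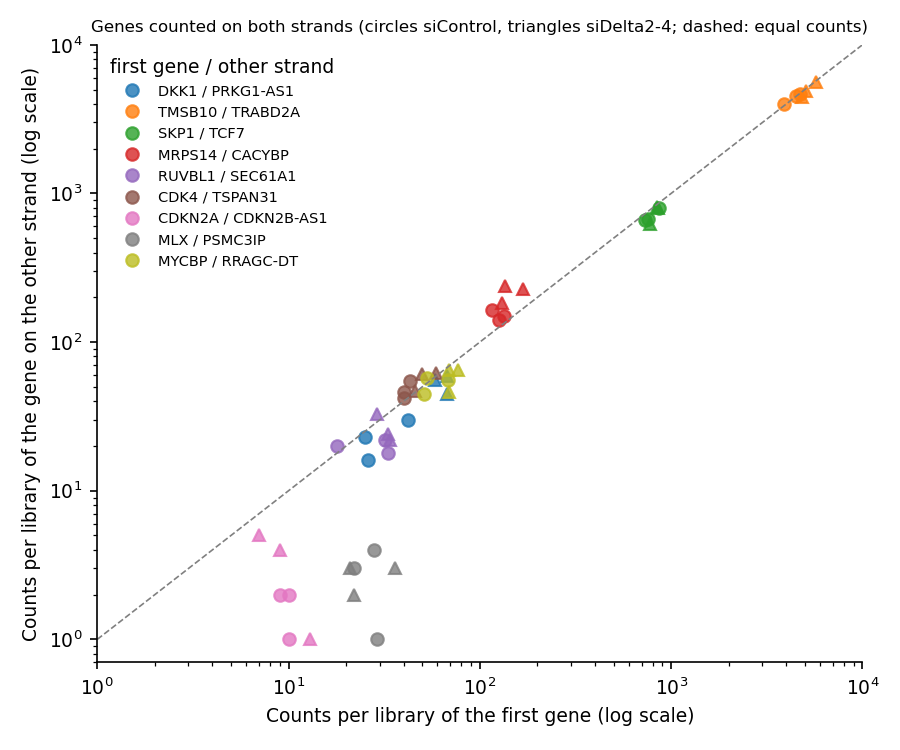
Counts per library of 9 pairs of genes on opposite strands (both axes logarithmic), with circles for siControl, triangles for siDelta2-4 and a dashed line at equal counts. TMSB10 with TRABD2A lies on both sides of the line, DKK1 with PRKG1-AS1 and SKP1 with TCF7 lie somewhat below it in all 6 libraries, and MLX with PSMC3IP and CDKN2A with CDKN2B-AS1 lie further below it.

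Few partners of cyclin D1 and MYC had enough counts for a test. CDK4, the kinase that cyclin D1 activates, had 39.5 ± 1.48 CPM in siControl and 43.1 ± 4.79 CPM in siDelta2-4 (SD, n = 3 each), a log2 fold change of 0.12 (edgeR adjusted p = 0.748). CCND3 had 2 counts, and CCND2 and CDK6 had no row. MAX, the partner with which MYC binds DNA, had 30 counts and was not tested. Of 25 cyclin D partners and regulators of the G1 phase 2 were tested, as were 2 of 20 MYC partners. Of these 0 were called, beside 13% of all 3888 genes in the fit. With so few tested, nothing is read from this 0.

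Of 30 MYC target genes, 22 were tested and 4 were called higher, beside 7% of all genes in the fit. The 4 genes encode NPM1, a nucleolar protein, CCT5, a subunit of the TRiC chaperonin, HSPD1, the mitochondrial chaperonin HSP60, and HNRNPA1, an RNA-binding protein. NPM1 had 879 ± 130 CPM in siControl and 1154 ± 44.4 CPM in siDelta2-4, a log2 fold change of 0.39 ± 0.09 (SE), at an adjusted p of 0.00763 by edgeR. CCT5 had 98.3 ± 7.64 and 142 ± 14.4 CPM, a log2 fold change of 0.53 ± 0.12 (SE), at an adjusted p of 0.00745 by edgeR. The groups of both genes did not overlap. HSPD1 had a log2 fold change of 0.98 ± 0.26 (SE), at an adjusted p of 0.0169 by edgeR, but the CPM of its groups overlapped. Only 0.435% of its 230 counts were on annotated models, and 73.0% were on an unannotated model of 12 exons and 2249 bases. HSPE1 on the other strand held 5628 counts, with a log2 fold change of -0.06 (edgeR adjusted p = 0.735). Whether the HSPD1 reads came from HSPD1 or HSPE1 was not tested. All unannotated models with a row had at least 5 counts in each siDelta2-4 library, the group where HSPD1 was higher, so its call is not independent of that minimum. With annotated models alone 2 calls were left, NPM1 and CCT5. HNRNPA1 had a log2 fold change of 0.25 ± 0.09 (SE), at an adjusted p of 0.0934 by edgeR, and this call was lost with DESeq2 size factors and on leaving out any single library but the smallest siControl one. The median over the 22 genes was 0.13, with 16 above 0, beside 0.03 and 2094 of 3888 over all genes in the fit. DESeq2 called 2 of the 4, NPM1 and CCT5. Over the table it called 78 genes higher, of a number with an adjusted p that was not counted. It gave an adjusted p to 12 of the 22 genes, with none for HSPD1 and 0.209 for HNRNPA1. Leaving out the mid-sized siControl library left 2 calls, HSPD1 and CCT5, and leaving out the mid-sized siDelta2-4 library left NPM1 and CCT5.

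**Figure D5:**
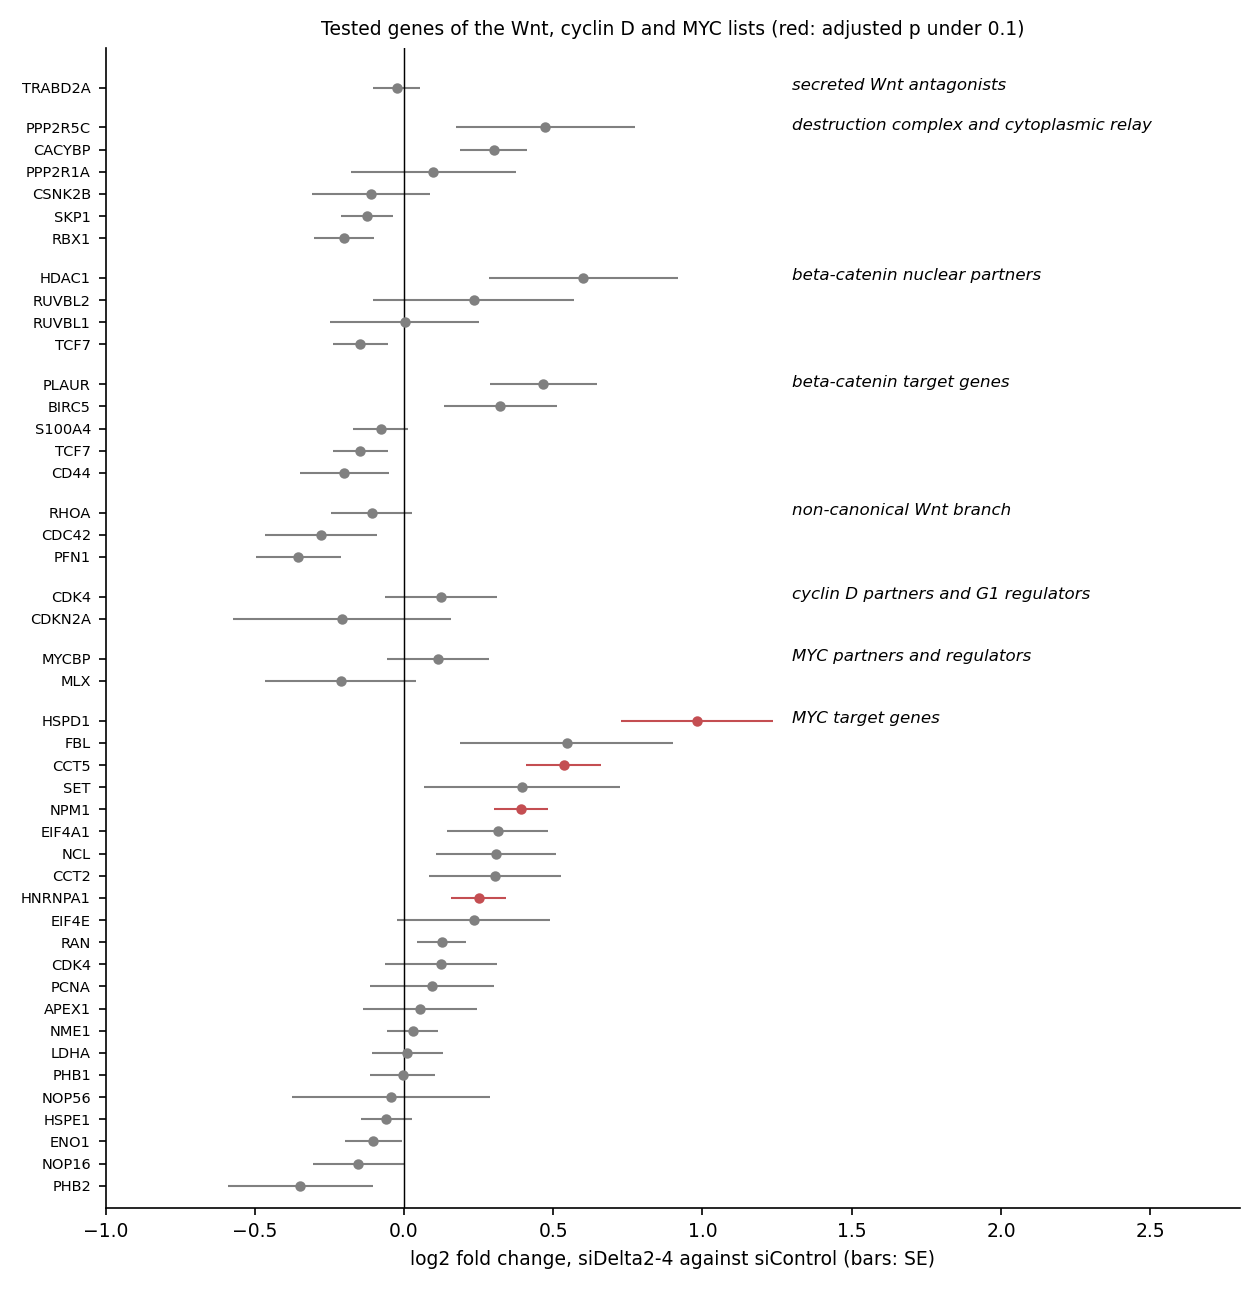
Log2 fold change of siDelta2-4 against siControl (x axis, bars for the SE) of the tested genes in the Wnt, cyclin D and MYC lists, with genes at an adjusted p under 0.1 in red. The red points are HSPD1, CCT5, NPM1 and HNRNPA1, all MYC targets with positive values, and TCF7 and CDK4 each appear in 2 lists.

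The genes nearest to DKK1 and TCIM on the chromosome gave no counts to compare. PRKG1 and the pseudogene RPL31P44, the neighbours of DKK1 before and after it, had no row, and neither did LINC02866 or ENSG00000254143, the neighbours of TCIM. DKK1 and TCIM have leading transcripts of like length, and the 718 genes whose leading model had 1500 to 2200 bases had a median log2 fold change of 0.13, beside 0.03 over all genes in the fit. The middle 90% of these 718 genes lay between -0.47 and 0.81. DKK1 and TCIM were chosen by this same contrast, so nothing is read from their place beside this range.

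Among the annotated genes whose log2 CPM followed that of DKK1 most closely over the 6 libraries were RABGGTB (Pearson r = 0.992), RAB13 (0.992), TM4SF18-AS1 (0.991) and ENSG00000250041 (0.986), of 2365 genes ranked. RABGGTB is a subunit of the enzyme that attaches lipids to Rab proteins, and RAB13 one of the Rab GTPases. For TCIM they were MGST1 (0.988), LAPTM4A (0.983), SARNP (0.981), FDPS (0.979) and PRKG1-AS1 (0.978), of 2366. MGST1 is a membrane-bound glutathione transferase and FDPS an enzyme of isoprenoid synthesis. These correlations are a description over 6 points that fall into 2 groups and share the same libraries, and the highest of many ranked values are high by selection.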

How the data were processed

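The authors deposited whole-number counts of long reads for each transcript model, without normalisation, from PCR-cDNA libraries pooled on a single flow cell run for 72 h. By their methods and labels, reads were aligned to GRCh38.p14 with minimap2 2.14 and SAMtools 1.13, corrected with TranscriptClean and assigned to Gencode 44 or unannotated models with TALON. The libraries of a group were not pooled. The table also gives each model's length in bases and its exon number, which were used as deposited.

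Counts were summed per gene, and all 8168 annotated genes matched Gencode 44. The gene test was the two-sided quasi-likelihood test of edgeR 4.0.16 (R 4.3.3), with filterByExpr at a minimum count of 10, TMM, no covariate, Benjamini-Hochberg adjustment over all tested genes and calls at an adjusted p under 0.1. CPM used TMM-scaled totals, log2 CPM a prior count of 2. Each SE was the log2 fold change over the square root of F. Totals, from the largest library to the smallest, were 1106413, 1077555 and 1037468 for siControl and 1309241, 1183889 and 1070009 for siDelta2-4. Libraries of a group differed beyond sampling noise (chi-square per gene 1.51 to 3.70), so none was a duplicate. The code was tested on simulated data.

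The members, lists and tests were chosen with earlier results of these data known. Named were the members, called list genes (at most 5 per list by p), tested paralogs and partners of the members, chromosomal neighbours, and the 5 genes nearest in pattern to DKK1 and TCIM, of which 1 is not reported here. Other genes, including untested partners and genes on the other strand, were named after their values were seen. Alternatives were DESeq2 1.42.0, 2 other scalings, 2 other filters, annotated models alone, an adjusted p under 0.05, a block on the column number and each library left out. Added after seeing the data were the DKK1 locus summed and the lists without genes counted on both strands.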

Additional observations from a re-analysis of the deposited data

How the results depend on the processing

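The log2 fold changes of DKK1, PRKG1-AS1 and TCIM kept their direction under each alternative that gave a value. The largest moves were 0.25, 0.21 and 0.41, below the pooled SD of log2 CPM within groups (0.32, 0.30 and 0.57); those of DKK1 and TCIM were above the SE (0.21 and 0.33). With each library left out they were 0.70 to 1.09 for DKK1, 0.78 to 1.21 for PRKG1-AS1 and 1.38 to 2.03 for TCIM. Annotated models alone gave no value for PRKG1-AS1, nor did at least 10 counts in every library for TCIM, and DESeq2 gave the members no adjusted p. The share of locus counts on PRKG1-AS1 was 39.9% to 44.8% in siControl and 43.5% to 48.0% in siDelta2-4 with each library left out. Annotated models alone gave no share. The number of member genes with at least 2 tested models was 0 to 0.

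The number of called genes, 504 (272 higher, 232 lower), was 252 with annotated models alone, 279 by DESeq2 (78 higher, 201 lower), 304 at an adjusted p under 0.05, and 194 (without the mid-sized siDelta2-4 library) to 1041 (without the smallest siControl library) with each library left out. Library totals alone gave 361 higher and 152 lower. The call count of the Wnt lists was 0 in the fit reported and 1 with DESeq2 size factors (PFN1, lower), 2 with library totals alone (CACYBP and PLAUR, higher), 1 with at least 10 counts in every library (CACYBP), 1 with annotated models alone (PFN1), and 0 to 3 with each library left out. That of the cyclin and MYC lists, 4, was 2 with annotated models alone, 2 by DESeq2, and 2 to 4 with each library left out. The cause of these differences was not tested. A replicate block on the column number gave 299 called genes (171 higher, 128 lower) and 0 and 3 calls in the lists; the correlations of like-numbered libraries were 0.04, -0.14 and -0.08, so the numbers were not taken as pairs. Depth limits CTNNB1, CCND1 and MYC, and 36 of the 54 Wnt genes with a row had too few counts for a test.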
